A study of Mus musculus with 10 samples.

Results

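The vascular endothelial growth factor (VEGF) family was followed in primary mouse liver cells enriched for the sinusoidal endothelium (LSEC), after a liver-damaging or a control diet. Its members here were the 4 ligand genes Vegfa, Vegfb, Vegfc and Pgf and the 3 receptor genes Flt1, Kdr and Flt4. They were chosen by gene symbol, and each was measured by 1 probe set, which makes 7 of the 24704 named genes on the arrays. Female C57BL/6N mice, 10 weeks old at the start, were kept for 10 weeks on a CDAA diet (31% of calories from fat, 1% cholesterol) or on a control diet labelled Std. In liver research CDAA usually means choline-deficient and L-amino acid-defined. Livers of 3 mice were pooled for each array, and cells were bound by beads against CD146, the product of Mcam. With 5 arrays per diet, which the labels call biological replicates, all values below describe pools and not single mice. A label field gives 10 days for the treatment, whereas the titles and the growth protocol give weeks, and the latter was used. The design text speaks of mice without Gata4 in these cells, but no sample is labelled so.

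VEGF ligands are secreted dimers that act through receptor tyrosine kinases on endothelial cells. VEGF-A signals mainly through VEGFR2 (Kdr), and VEGFR1 (Flt1) binds VEGF-A, VEGF-B and placental growth factor (Pgf) and acts in large part as a trap. VEGF-C acts through VEGFR3 (Flt4), a receptor best known from lymphatic vessels and also present on sinusoids. In the liver, VEGF-A made by neighbouring cells helps to keep the sinusoidal lining open and fenestrated.

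All 3 receptors fell with CDAA, whereas the ligands moved apart: Vegfa rose, Vegfb fell, and neither Vegfc nor Pgf passed the test. In all, 5 of the 7 genes passed an adjusted p of 0.05 (limma, Benjamini-Hochberg over all genes), 1 upward and 4 downward. Over all genes, 16.6% changed, 7.49% rising and 9.13% falling. For the same 5 genes the 5 CDAA values did not overlap the 5 Std values, with CDAA above for 1 gene and below for 4. Such a gap was found for 13.9% of all genes, with CDAA above for 6.16% and below for 7.73%. The same 5 were called without CDAA 1 and CDAA 3, and when any 1 array was left out. None of the 7 passed once the mean of pan-endothelial markers was a covariate, as described further on. Changes are given throughout as the mean log2 value with CDAA less that with Std. In an isolate of mixed cells, fewer cells of a type and less RNA per cell cannot be told apart.

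The median log2 value over the named genes of all arrays was 3.88. Markers of LSEC were high in Std, with a mean of 11.98 ± 0.06 (SD, n = 5) over 12 genes, none below that median. Arrays CDAA 1 and CDAA 3 held the lowest endothelial signal, and Std 3 had a neutrophil marker mean of 8.55 against 3.60 to 3.86 in the other Std arrays. No detection call was used, so a signal below the array median was not known to lie above background.

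The stretches before the start sites of the 3 receptor genes, which fell together, and of Vegfa, which moved the other way, are shown as the control regions nearest to the transcripts measured. Each is the 250 bases before a RefSeq start site on GRCm38.p6, written 5′ to 3′ on the gene's strand. Capitals mark GGAA or its reverse complement, the core bound by ETS factors, of which several act in endothelial genes.
Flt1 (chr5:147726012-147726261, minus strand): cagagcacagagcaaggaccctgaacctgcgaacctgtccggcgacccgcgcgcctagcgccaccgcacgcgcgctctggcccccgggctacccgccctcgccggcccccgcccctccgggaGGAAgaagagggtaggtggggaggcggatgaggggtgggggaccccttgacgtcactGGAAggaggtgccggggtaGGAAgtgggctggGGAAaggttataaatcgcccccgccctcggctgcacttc
Kdr (chr5:75978456-75978705, minus strand): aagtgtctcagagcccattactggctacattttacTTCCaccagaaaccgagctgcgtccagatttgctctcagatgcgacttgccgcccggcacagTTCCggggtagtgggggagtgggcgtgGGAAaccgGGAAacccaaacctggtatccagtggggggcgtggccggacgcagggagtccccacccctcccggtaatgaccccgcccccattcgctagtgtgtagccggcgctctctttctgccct
Flt4 (chr11:49609429-49609678, plus strand): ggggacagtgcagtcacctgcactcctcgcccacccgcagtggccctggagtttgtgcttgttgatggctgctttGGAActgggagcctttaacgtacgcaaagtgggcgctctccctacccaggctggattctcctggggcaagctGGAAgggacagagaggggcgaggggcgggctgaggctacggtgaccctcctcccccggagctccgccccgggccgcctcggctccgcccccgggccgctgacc
Vegfa (chr17:46032378-46032627, minus strand): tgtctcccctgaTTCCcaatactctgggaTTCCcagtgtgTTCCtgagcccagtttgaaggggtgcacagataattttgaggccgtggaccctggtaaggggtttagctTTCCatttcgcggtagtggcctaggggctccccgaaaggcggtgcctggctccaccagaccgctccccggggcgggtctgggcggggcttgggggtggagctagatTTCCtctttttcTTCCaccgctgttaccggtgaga
The ETS core was found 4 times before Flt1, 4 times before Kdr, 2 times before Flt4 and 6 times before Vegfa. It occurs in 93.4% of the 32851 stretches of this length in the table, 3 times in the median one, so its presence does not set these genes apart. All motifs were searched on both strands, and no matches of different motifs overlapped. The core GATA, named for the factors that bind it, stood once before Kdr and once before Vegfa and is found in 53.6% of stretches. The GC box GGGCGG was present before all 4 genes, against 32.7% of stretches. TATAA occurred only before Flt1, in 2 overlapping matches on opposite strands 32 and 31 bases before the start, and in 22.8% of all stretches. The hypoxia response core was searched in the form ACGTG and in a second form with G at its start. The first form was absent from the 4 printed stretches and present once before the other Vegfa start site in the table, and 16.6% of all stretches hold it. The second, GCGTG, occurred once before Flt1 and 2 times before Kdr, against 28.2% of stretches. Such matches describe letters and not binding.

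Flt1 encodes VEGFR1, which binds VEGF-A tightly and also exists in a soluble form that this probe set does not tell apart. Its log2 values were 8.92, 9.57, 8.58, 9.86 and 9.48 in CDAA 1 to CDAA 5 and 10.76, 10.43, 10.66, 10.77 and 10.50 in Std 1 to Std 5. The highest CDAA array thus lay below the lowest Std array, and CDAA 3 and CDAA 1 were lowest. Flt1 fell by 1.34 ± 0.21 (SE, limma adjusted p = 0.00129, 95% interval -1.80 to -0.88), which is 2.53-fold lower. Among all genes it had the 78th largest fall.

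Kdr encodes VEGFR2, the main signalling receptor for VEGF-A. Its values were 11.70, 11.93, 11.22, 12.38 and 11.81 in CDAA 1 to CDAA 5, against 12.76, 12.70, 12.62, 12.74 and 12.64 in Std 1 to Std 5. The Std arrays spanned a narrow range and all lay above CDAA 4, the highest CDAA array. Kdr fell by 0.89 ± 0.17 (SE, limma adjusted p = 0.00404, 95% interval -1.26 to -0.52), or 1.85-fold, and was the 420th largest fall.

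Flt4 encodes VEGFR3, the receptor for VEGF-C. It was at 10.82, 11.43, 10.47, 11.50 and 11.17 in CDAA 1 to CDAA 5 and at 11.96, 11.82, 11.93, 12.01 and 11.77 in Std 1 to Std 5. Again no CDAA array reached the lowest Std array. The fall was 0.82 ± 0.18 (SE, limma adjusted p = 0.00781, 95% interval -1.20 to -0.44), 1.77-fold. Without CDAA 1 and CDAA 3 the change was -0.53 ± 0.11 and still passed (limma adjusted p = 0.0129). The 4 measured lymphatic endothelial markers went both ways. Prox1 and Pdpn, which bile duct or mesenchymal cells can also express, rose by 1.91 and 0.98. Mmrn1 and Reln were lower with CDAA, with changes of -0.57 and -0.09, neither of them called by limma. The mean of these 4 markers was 5.72 to 6.26 in CDAA and 5.13 to 5.66 in Std.

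Vegfa, the best known inducer of vessel growth, rose with CDAA. Its values were 8.07, 7.26, 8.09, 7.25 and 7.33 in CDAA 1 to CDAA 5 and 6.47, 5.87, 6.51, 6.28 and 6.09 in Std 1 to Std 5. Every CDAA array lay above every Std array, and CDAA 1 and CDAA 3 stood above the other 3. Vegfa rose by 1.36 ± 0.20 (SE, limma adjusted p = 0.000908, 95% interval 0.92 to 1.79), 2.56-fold, the 402nd largest rise of all genes. Splice forms of Vegfa, which differ in how firmly they bind matrix, share this probe set.

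Vegfb, whose product binds VEGFR1 and not VEGFR2, was lower with CDAA. It had values of 6.83, 7.19, 7.05, 7.29 and 7.29 in CDAA 1 to CDAA 5 against 7.72, 7.78, 7.55, 7.71 and 7.66 in Std 1 to Std 5. The diets did not overlap, and CDAA 1 was the lowest. The fall of 0.55 ± 0.11 (SE, limma adjusted p = 0.00412, 95% interval -0.78 to -0.32) was 1.47-fold.

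Vegfc, the ligand of VEGFR3, split the CDAA arrays. Values were 6.39, 7.26, 6.37, 7.34 and 7.13 in CDAA 1 to CDAA 5, and 7.04, 7.21, 7.17, 7.08 and 7.13 in Std 1 to Std 5. CDAA 1 and CDAA 3 lay below every Std array, while the other 3 CDAA arrays were within or above the Std range. The difference of -0.23 ± 0.19 did not pass (SE, limma adjusted p = 0.497, 95% interval -0.64 to 0.19), and without those 2 arrays it was 0.12 ± 0.10 (limma adjusted p = 0.514).

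Pgf, a ligand of VEGFR1 known from placenta and inflamed tissue, had signals below the array median on every array. They ran from 2.68 to 3.08 in CDAA and from 2.43 to 2.94 in Std, with Std 3 the lowest. The difference was 0.06 ± 0.12 (SE, limma adjusted p = 0.805, 95% interval -0.20 to 0.33), and -0.03 without Std 3.

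**Figure D1:**
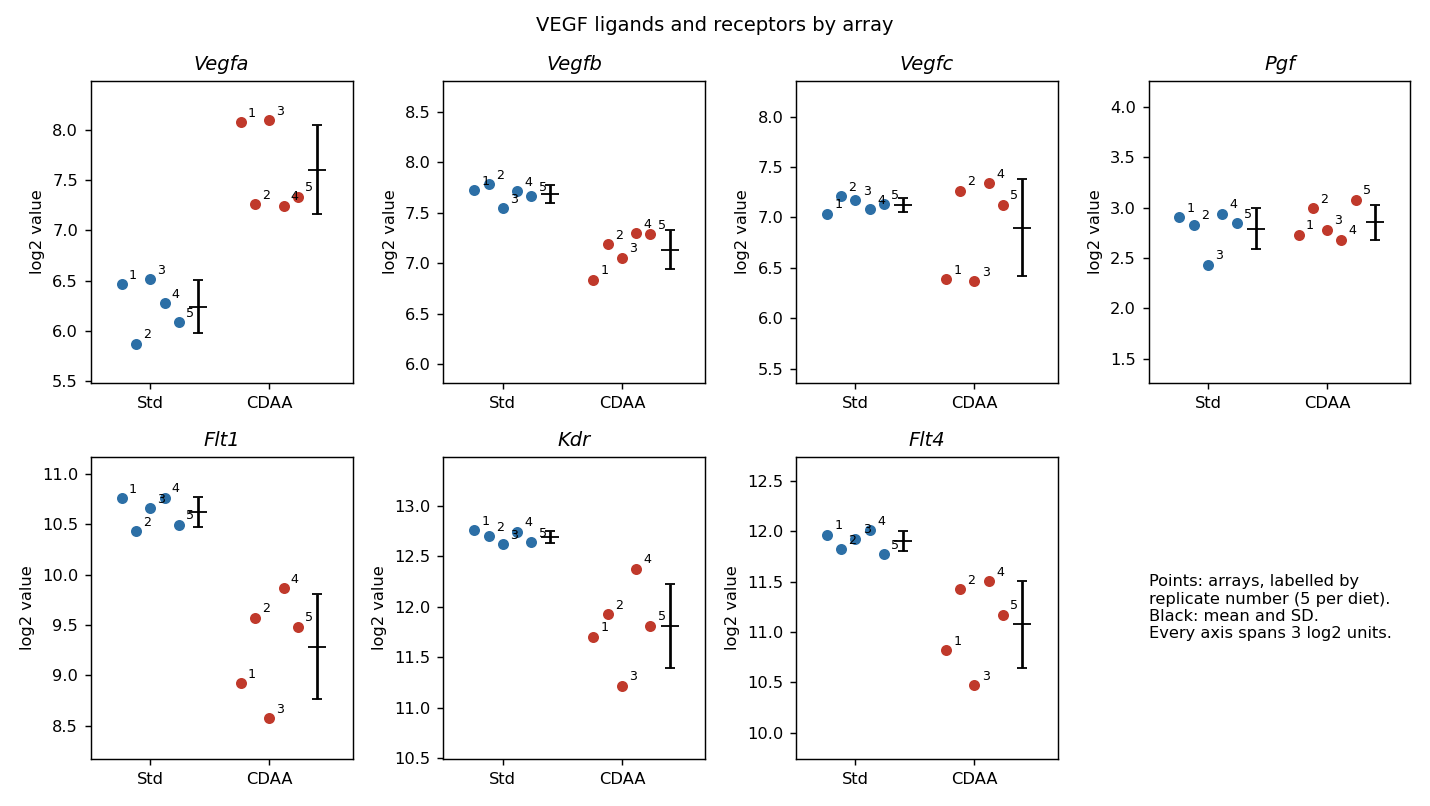
Log2 values of the 7 genes on each array, by diet. Points are arrays labelled by replicate number, black marks give mean and SD (n = 5), and every vertical axis spans 3 log2 units. The diets do not overlap for Vegfa, Vegfb, Flt1, Kdr and Flt4, and CDAA 1 and CDAA 3 stand apart from the other CDAA arrays for Vegfa, at 8.07 and 8.09, and for Vegfc, at 6.39 and 6.37.

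Whether members changed by different amounts was tested on the difference between 2 genes within each array, for 3 receptor pairs and 6 ligand pairs. The test was a two-sided exact permutation test over 252 arrangements, whose smallest p is 0.00794, adjusted over the 9 pairs. Of these, 6 pairs passed, of which 2 hold Pgf and are limited by its signal. Flt1 fell by more than Kdr, by 0.45 on the log2 scale (exact permutation p = 0.00794, adjusted p = 0.0119), and by more than Flt4, with a difference of -0.52 (exact permutation p = 0.00794, adjusted p = 0.0119). For Kdr against Flt4 the difference was -0.07 (exact permutation p = 0.468, adjusted p = 0.468). Leaving out any array kept the Flt1 differences between -0.50 and -0.39 against Kdr and between -0.56 and -0.49 against Flt4. By mean signal Kdr and Flt4 lay at percentiles 99.9 and 99.7 of all genes, and Flt1 at 98.4. Whether signals that high move less for the same change in RNA was not tested.

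Among ligands, Vegfa differed by 1.91 from Vegfb and by 1.59 from Vegfc, each with an exact permutation p of 0.00794 and an adjusted p of 0.0119. In both pairs all CDAA arrays lay above all Std arrays. Vegfb against Vegfc gave -0.32 (exact permutation p = 0.0873, adjusted p = 0.112), and passed without CDAA 3, at -0.44, and without CDAA 1 and CDAA 3, at -0.55. Since Pgf was not known to lie above background, its pairs carry the change of the other ligand and are not read as unequal change. They gave 1.29 for Vegfa and -0.62 for Vegfb (exact permutation p = 0.00794, adjusted p = 0.0119 for both) and -0.29 for Vegfc (exact permutation p = 0.222, adjusted p = 0.25).

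**Figure D2:**
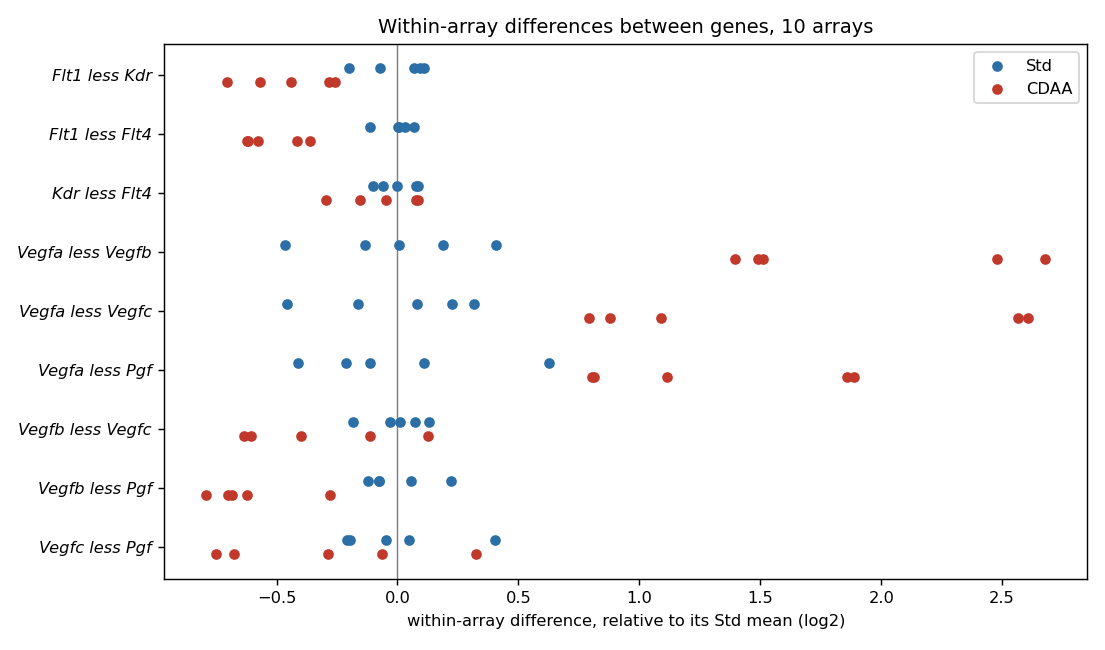
Within-array difference between 2 genes on each of 10 arrays, set to 0 at its Std mean, on the log2 scale. Points are arrays (5 per diet). The CDAA points of Flt1 less Kdr and of Flt1 less Flt4 all lie below the Std points, with mean shifts of -0.45 and -0.52, while those of Kdr less Flt4 overlap Std.

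The receptors fell alongside other endothelial genes. Of 10 pan-endothelial markers, chosen without the VEGF receptors, 7 fell and none rose, with a median change of -0.68 against -0.02 over all genes. Of 12 LSEC markers, 11 fell, with a median of -0.90. The pan-endothelial mean ran from 10.14 to 11.20 in CDAA and from 11.40 to 11.53 in Std. CDAA 3 had the lowest mean, at 10.14, and CDAA 1 the next, at 10.51, the same order as for the 3 receptors. With this mean as a covariate the estimates were -0.53 ± 0.14 for Flt1, -0.28 ± 0.15 for Kdr and -0.15 ± 0.12 for Flt4 (SE). None passed, with limma adjusted p of 0.107, 0.416 and 0.648. Vegfa was then at 0.71 ± 0.21 (limma adjusted p = 0.150), Vegfb at -0.33 ± 0.15 (limma adjusted p = 0.327) and Vegfc at 0.47 ± 0.15 (limma adjusted p = 0.187). At an unadjusted p under 0.05, 4 of the 7 members passed, namely Vegfa, Vegfb, Vegfc and Flt1. Of these, Vegfc had the opposite sign to the fit without the covariate. The share of all genes at that unadjusted level was not computed, so this count is not read as a result. The covariate moved with the diet, and 398 of all genes passed in that fit.

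Taken as differences from the pan-endothelial mean of the same array, which is a description without a test, the receptors were still lower with CDAA. Flt1 was at -1.58 to -1.33 in CDAA and -1.02 to -0.72 in Std, a shift of -0.65. Kdr shifted by -0.20, with 0.847 to 1.195 in CDAA and 1.217 to 1.281 in Std. Flt4 shifted by -0.13, with 0.249 to 0.347 in CDAA and 0.352 to 0.530 in Std. For all 3 the diets did not overlap, with CDAA lower, though the gaps of Kdr and Flt4 were narrow. Such a gap was found for 0.567% of all genes. The subtracted mean itself fell with CDAA, with a mean change of -0.69, which moves unchanged genes upward on this scale. Against the LSEC marker mean the order changed: Flt1 shifted by -0.33 with overlapping diets, Kdr by 0.12 with overlap, and Flt4 by 0.19 with every CDAA array higher. On that scale 77.4% of genes lay higher in all CDAA arrays. Against the pan-endothelial mean, Vegfa shifted by 2.04, Vegfc by 0.46 and Pgf, with its signal below the median, by 0.75, with every CDAA array higher, whereas Vegfb, at 0.13, overlapped. A gap in either direction was found there for 42.2% of all genes and one with CDAA higher for 41.7%. On these means the direction for Kdr and Flt4 thus turned with the marker set, and that for Flt1 did not. The mean change of the LSEC list, -1.01, was drawn down most by Cd209b (-2.34) and Ehd3 (-1.59). Whether the turn holds without these genes was not tested.

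**Figure D3:**
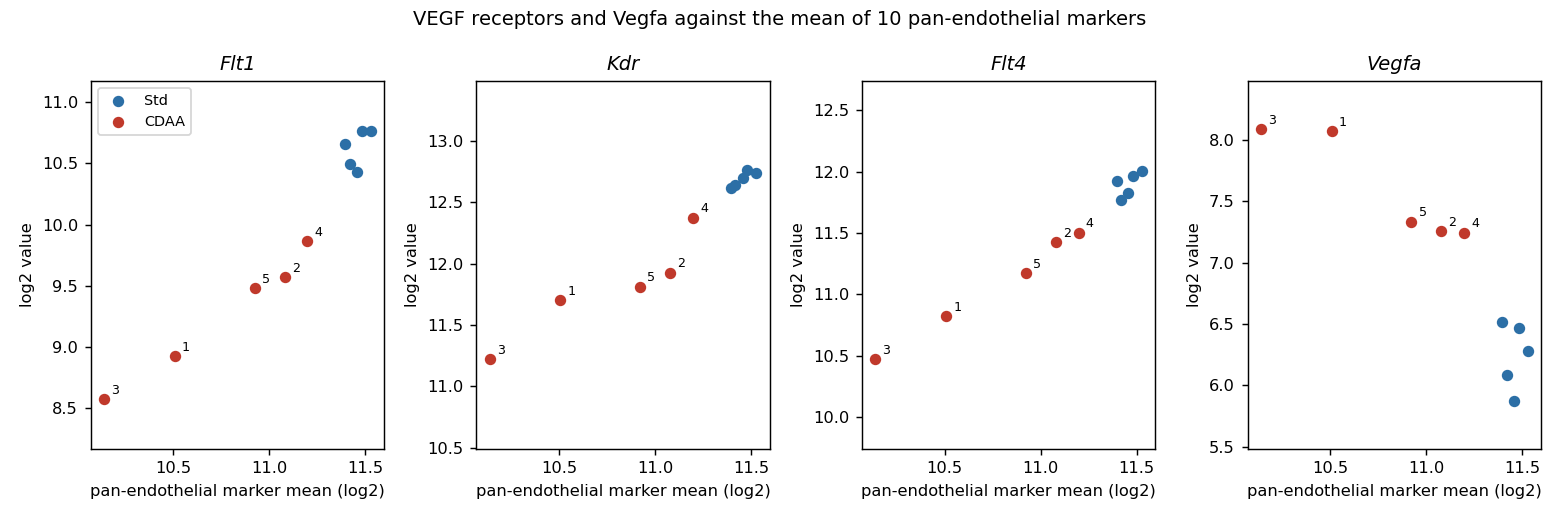
Log2 values of Flt1, Kdr, Flt4 and Vegfa against the mean of 10 pan-endothelial markers on the same array (log2). Points are arrays by diet, with CDAA arrays labelled by number. CDAA 3 and CDAA 1, with means of 10.14 and 10.51, hold the lowest receptor and the highest Vegfa values, and all Vegfa values in CDAA exceed those in Std.

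**Figure D4:**
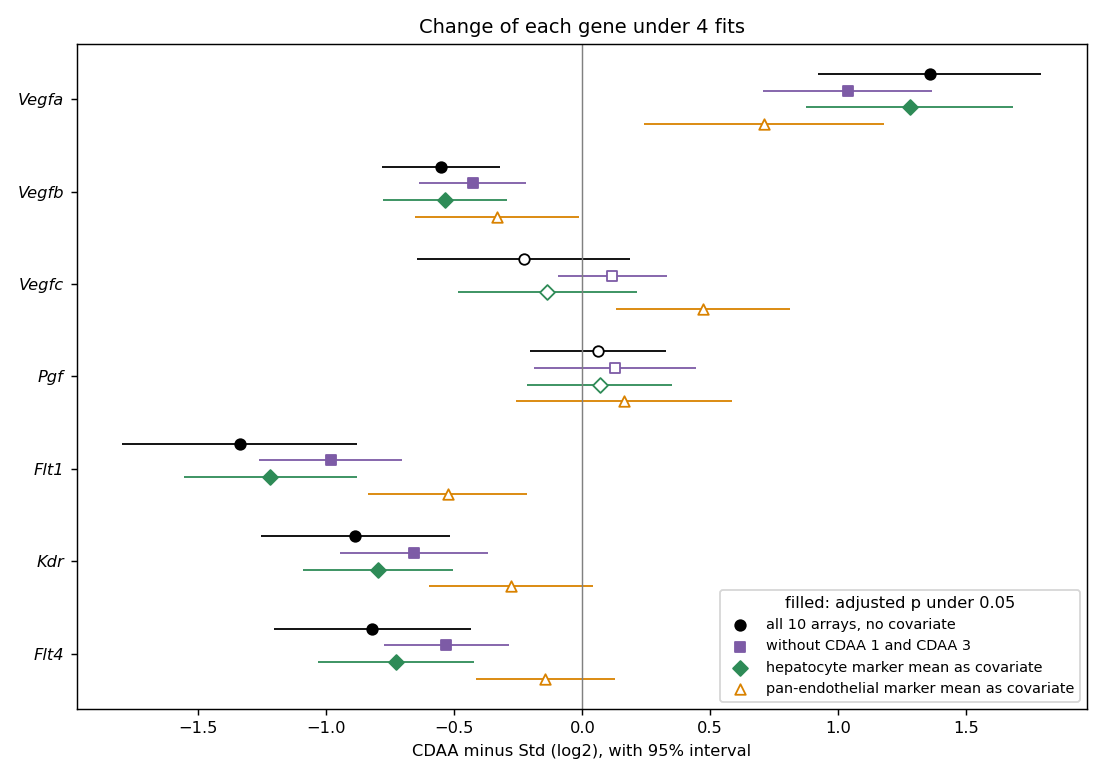
CDAA minus Std difference of the 7 genes in 4 fits, with 95% intervals on the log2 scale. Filled symbols passed an adjusted p of 0.05 by limma. Estimates for Flt1 go from -1.34 to -0.98 without CDAA 1 and CDAA 3 and to -0.53 with the pan-endothelial covariate, where no gene passed.

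Markers of other cells moved with the diet too. Of 9 recruited macrophage markers 8 rose, and their mean ran from 7.84 to 9.13 in CDAA against 4.95 to 5.78 in Std. All 7 bile duct markers rose, with means of 7.31 to 8.17 against 4.51 to 5.49. Of 10 stellate cell and fibroblast markers 5 rose, with means of 6.62 to 8.18 against 5.86 to 6.34. Hepatocyte markers went both ways, 3 rising and 2 falling of 9, with means of 6.76 to 7.76 and 6.67 to 7.32. Of 10 Kupffer cell and macrophage markers 4 fell and none rose, with means of 8.52 to 9.54 and 8.76 to 9.85. The median change of that list was 0.27, whereas its mean level was lower with CDAA. None of the markers of these 5 lists lay below the array median in both diets, while 2 recruited macrophage genes and 1 bile duct gene did so in the control diet only. Among the CDAA arrays, CDAA 1 and CDAA 3, which held the highest Vegfa, also had the highest values of the following means. Recruited macrophage markers were at 8.92 and 9.13 and bile duct markers at 8.17 and 7.92. Stellate cell and fibroblast markers were at 7.96 and 8.18 and hepatocyte markers at 7.17 and 7.76. Over deviations from the diet means of 10 arrays, Vegfa had Pearson correlations of 0.86, 0.80, 0.59 and 0.53 with these 4 means. Without those 2 arrays the values were 0.54, 0.84, -0.34 and -0.17. The part of these cells in the rise of Vegfa, and in the fall of the other genes, was not tested. With the hepatocyte mean as a covariate Vegfa was at 1.28 ± 0.18 and still passed (limma adjusted p = 0.000905). That mean differed little between diets, at 7.12 in CDAA and 6.99 in Std, as its markers had changes from -1.18 to 1.54. This fit thus cannot decide the part of hepatocytes, and it does not bear on the other cells. The means of recruited macrophage, bile duct, and stellate cell and fibroblast markers were not used as covariates.

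In 8 lists of genes of the pathway, 43 genes changed, 16 rising and 27 falling. The number measured in each list is given below, and over all genes 16.6% changed, 7.49% rising and 9.13% falling. Once that endothelial mean was a covariate, 3 of them still passed by limma, all risen, namely Itgav, F3 and Prox1. Of all 24704 genes, 398 passed with that covariate. Every other change in these lists, named below, did not pass in that fit.

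Partners of the receptors at the cell surface included more falls than rises. Of 10 such genes 5 fell and 2 rose, with a median of -0.63. Nrp1, the neuropilin that presents VEGF-A to VEGFR2, had values of 10.31, 10.79, 9.96, 10.95 and 10.61 in CDAA 1 to CDAA 5 and 11.60, 11.65, 11.44, 11.79 and 11.55 in Std 1 to Std 5. No CDAA array reached the Std range. Nrp1 fell by 1.09 ± 0.17 (SE, limma adjusted p = 0.00110). Nrp2, a neuropilin that also binds VEGF-C, fell by 0.68 ± 0.17 (limma adjusted p = 0.0167), and its 5 CDAA values, 9.03 to 10.11, lay below the Std values, 10.25 to 10.47.

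Robo4, an endothelial guidance receptor that restrains VEGF signalling, fell by 1.10 ± 0.20 (SE, limma adjusted p = 0.00282). Ptprb, the phosphatase that acts on VEGFR2 and VE-cadherin, was lower by a change of -0.80 and passed too. Cdh5, which is VE-cadherin, fell by 0.64, but did not pass without Std 4, at -0.63 (limma adjusted p = 0.0502). These 3 are also in the pan-endothelial list. The integrin chain Itgav rose by 1.49 ± 0.15 (SE, limma adjusted p = 9.52e-05), with 8.69 to 9.46 in CDAA against 7.47 to 7.71 in Std, and the netrin receptor Unc5b rose by 0.72. Unc5b did not pass without CDAA 1 and CDAA 3, at 0.53 (limma adjusted p = 0.101). Mcam, the target of the isolation beads and a partner of VEGFR2, was at 9.66 ± 0.34 with CDAA and 9.54 ± 0.10 with Std (SD, n = 5) and did not pass (limma adjusted p = 0.664). Without CDAA 1 and CDAA 3 it passed, at 0.35 (limma adjusted p = 0.0499).

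Of Vegfd and the genes that mature VEGF-C and VEGF-D, 2 of 7 fell and none rose, with a median of -0.16. Ccbe1, which helps a protease to cleave VEGF-C, fell by 1.04 ± 0.22 (SE, limma adjusted p = 0.00758), from 4.47 to 5.61 in Std to 3.77 to 4.67 in CDAA. These ranges overlapped through Std 3, the lowest Std array. The proprotein convertase Pcsk7 fell by 0.57 ± 0.10 (limma adjusted p = 0.00237), whereas Furin, of the same family, differed by -0.16 and did not pass. Vegfd itself had signals below the array median, 3.25 ± 0.19 and 2.90 ± 0.22 (SD, n = 5). It did not pass (limma adjusted p = 0.0913), but did without Std 1, at 0.43 (limma adjusted p = 0.0473).

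Of 19 measured signal transducers below the receptors, 3 fell, 2 rose and 14 did not pass, with a median of 0.03. Plcg1, the phospholipase recruited by VEGFR2, fell by 0.64 ± 0.15 (SE, limma adjusted p = 0.0128), and Fyn, a kinase, by 0.66 ± 0.14 (limma adjusted p = 0.00666). The adaptor Pxn, paxillin, fell by 0.39, but did not pass without CDAA 1, CDAA 3, Std 1, Std 3 or Std 4, at -0.39 to -0.34, or without both CDAA 1 and CDAA 3, at -0.31. The kinase Src rose by 1.05 ± 0.19 (limma adjusted p = 0.00262) and Mapkapk2 by 0.64. Nos3, the endothelial nitric oxide synthase, was at 8.07 ± 0.48 and 8.55 ± 0.15 (SD, n = 5) and did not pass (limma adjusted p = 0.132).

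Genes known to be induced by VEGF in endothelial cells went both ways, 4 of 18 rising and 4 falling, with a median of 0.04. Spry4, a feedback inhibitor of receptor tyrosine kinases, had 6.57, 7.25, 6.56, 7.19 and 7.08 in CDAA 1 to CDAA 5 and 8.06, 7.96, 8.31, 8.71 and 8.33 in Std 1 to Std 5. All CDAA values lay below the lowest Std value, and Spry4 fell by 1.34 ± 0.18 (SE, limma adjusted p = 0.000465). The Notch ligand Dll4, which is raised by VEGF in tip cells, fell by 1.31 ± 0.22 (limma adjusted p = 0.00223). Angpt2, a TIE2 ligand, fell by 0.96 but did not pass without CDAA 1, CDAA 3, Std 1, Std 2, Std 4 or Std 5, at -0.965 to -0.77. Without both CDAA 1 and CDAA 3 it was at -0.50 and did not pass either (limma adjusted p = 0.0978). Rcan1, a calcineurin inhibitor, fell by 0.29 and did not pass in 8 of 10 fits that left out 1 array, all but those without CDAA 1 or Std 1.

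The chemokine receptor Cxcr4 rose by 1.88 ± 0.41 (SE, limma adjusted p = 0.00824), and F3, tissue factor, rose by 1.85 ± 0.16 (limma adjusted p = 3.15e-05), from 3.69 to 4.23 in Std to 5.58 to 6.34 in CDAA. The nuclear receptors Nr4a1 and Nr4a3, which also respond to cell stress, rose by 1.30 and 1.27. Nr4a3 did not pass without CDAA 3, at 1.12, or without Std 5, at 1.20. Esm1, a tip cell gene, was at 6.46 ± 0.58 and 6.05 ± 0.40 (SD, n = 5) and did not pass (limma adjusted p = 0.362). Without CDAA 1 and CDAA 3 it passed, at 0.83 (limma adjusted p = 0.0301).

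Hypoxia is a known inducer of Vegfa. Of 16 hypoxia sensors and hypoxia-induced genes, 2 rose and 3 fell, with a median of 0.03. Epas1, the hypoxia-inducible factor subunit typical of endothelium, fell by 1.03 ± 0.17 (SE, limma adjusted p = 0.00192), with 9.42 to 10.37 in CDAA and 10.78 to 11.19 in Std. Hif1a was at 8.24 ± 0.22 and 8.09 ± 0.08 (SD, n = 5) and did not pass (limma adjusted p = 0.432). The glucose transporter Slc2a1 rose by 1.36 ± 0.25 (limma adjusted p = 0.00345), and the prolyl hydroxylase Egln3 by 0.47. The vasodilator peptide gene Adm fell by 1.36 ± 0.24 (limma adjusted p = 0.00250) and Ndrg1 by 0.71.

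Of 14 endothelial transcription factors, several of which act on the receptor genes, 8 fell and 1 rose, with a median of -0.58. Gata2 fell by 1.16 ± 0.24 (SE, limma adjusted p = 0.00604), Foxo1 by 0.78 and Klf2, a factor induced by flow, by 0.58. When CDAA 1 and CDAA 3 were left out, 3 fell and 1 rose, and Sox18, Sox7, Sox17, Erg and Tal1 did not pass, at -0.49, -0.51, -0.35, -0.35 and -0.43. Some single arrays, in both diets, ended the call of 3 of these. Sox18, which fell by 0.79, did not pass without CDAA 1, Std 1, Std 4 or Std 5, at -0.78 to -0.70. Sox17, which fell by 0.60, did not pass without CDAA 1, CDAA 5, Std 1, Std 4 or Std 5, at -0.60 to -0.57. Erg, an ETS factor, fell by 0.66 and did not pass in 7 of 10 such fits, all but those without CDAA 2, CDAA 4 or Std 3. Prox1, which marks lymphatic endothelium and also hepatocytes and bile duct cells, rose by 1.91 ± 0.23 (limma adjusted p = 0.000244).

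Of 9 extracellular antagonists of VEGF or angiogenesis, 3 rose and 1 fell, with a median of 0.02. Thbs1, thrombospondin 1, rose by 2.16 ± 0.28 (SE, limma adjusted p = 0.000449), and Col18a1, the source of endostatin, by 0.70 ± 0.12 (limma adjusted p = 0.00213). Ccn2, a matricellular protein that binds VEGF-A, rose by 0.57, and passed in 1 of 10 fits that left out 1 array, that without Std 2. Timp3, which blocks VEGF-A from VEGFR2, fell by 1.03 ± 0.14 (limma adjusted p = 0.000552). In the class III kinases, the relatives of the VEGF receptors, Pdgfra and Pdgfrb of mesenchymal cells rose by 1.51 and 1.02 and Kit fell by 0.96, out of 5 genes with a median of 0.86.

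**Figure D5:**
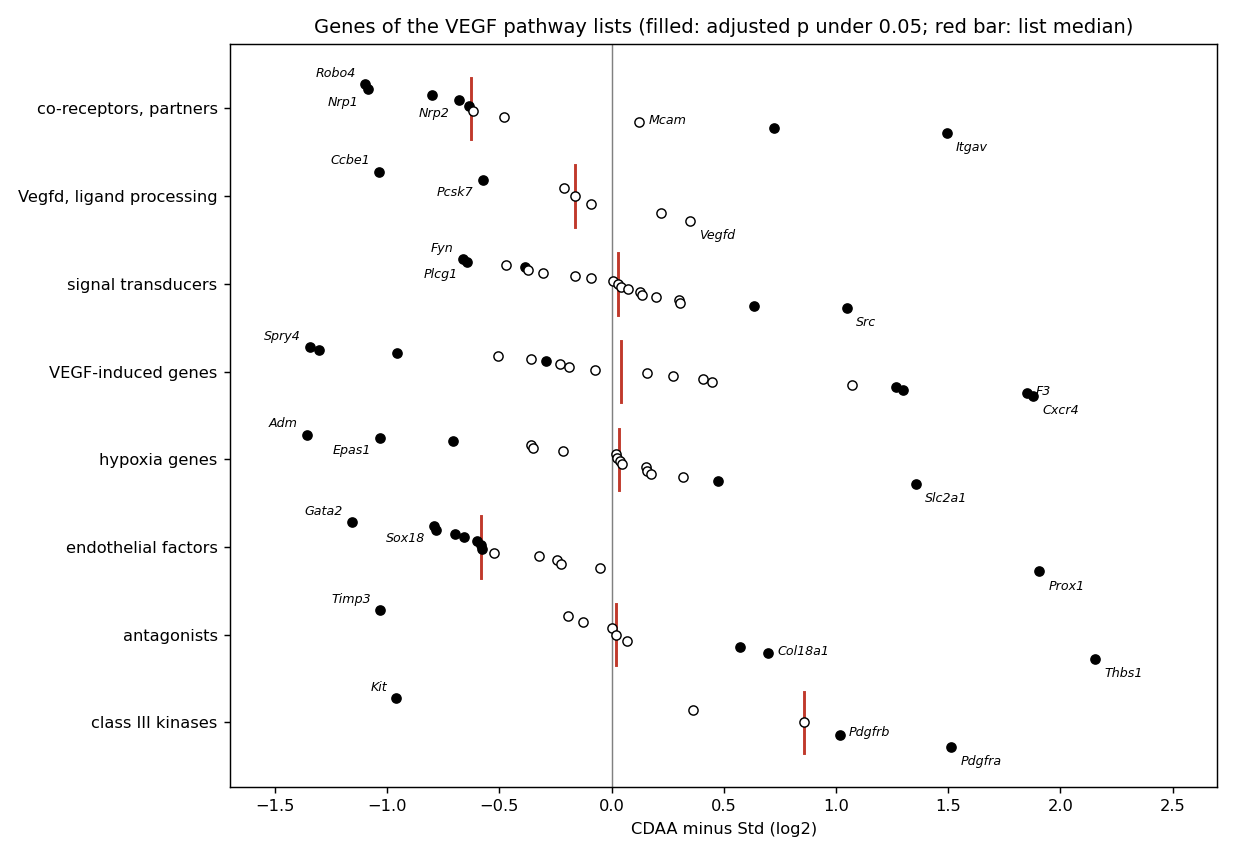
CDAA minus Std difference (log2) of each measured gene in 8 lists of the VEGF pathway. Filled points passed an adjusted p of 0.05 by limma, and red bars are list medians. Co-receptors and endothelial factors lie mostly to the left, with medians of -0.63 and -0.58, and the other lists except the class III kinases, at 0.86, have medians between -0.16 and 0.04.

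Within diets the receptors varied together and with other endothelial genes, with most of the spread in CDAA. The SD of Flt1, Kdr and Flt4 was 0.52, 0.42 and 0.43 in CDAA and 0.15, 0.06 and 0.10 in Std (n = 5). Over the deviations of the 10 arrays from their diet means, Flt1 and Flt4 had a Pearson correlation of 0.98 (Spearman 0.98), Flt1 and Kdr of 0.91 (0.84) and Kdr and Flt4 of 0.91 (0.89). Without CDAA 1 and CDAA 3 these Pearson values were 0.87, 0.75 and 0.70. With the pan-endothelial mean the correlations were 0.96 for Flt1, 0.93 for Kdr and 0.98 for Flt4, and with the LSEC mean 0.97, 0.93 and 0.99. Without CDAA 1 and CDAA 3 they were 0.74, 0.90 and 0.85 with the pan-endothelial mean, and 0.77, 0.86 and 0.90 with the LSEC mean. Vegfc followed Flt4 at 0.90 and Vegfa opposed it at -0.70, but without those arrays the values were 0.30 and 0.34. The relations of Vegfc and Vegfa to Flt4 thus rested on CDAA 1 and CDAA 3. These correlations are descriptions of 10 arrays that share 2 arrays far from the rest.

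The genes most like each member by the same measure were taken from 11424 or 11425 genes above the median level. For Flt1 they were Jak1, Chst15 and Mtmr12 (0.993, 0.990 and 0.990), and for Flt4 Mtmr12, Jak1 and Plpp3 (0.991, 0.989 and 0.989). For Kdr they were Ptprb, Peg13 and Notch4 (0.988, 0.986 and 0.983), of which Ptprb and Notch4 are endothelial genes. Vegfa was most like the macrophage chemokine Ccl3, Abhd2 and Osgin1 (0.982, 0.980 and 0.976). Vegfb had Pigk, Ldhb and Togaram1 (0.993, 0.967 and 0.966), and Vegfc had Mtch1, Fzd4 and Msr1 (0.987, 0.986 and 0.982). Pgf had Dclk3, Hoxd3os1 and Zswim7 (0.934, 0.929 and 0.926), but its signal was not known to lie above background. Its likeness to these genes is therefore not read as a result. Without CDAA 1 and CDAA 3 the correlation of Vegfc with Fzd4 was 0.62 and that of Vegfa with Ccl3 0.97. Ccl3 rose by 2.73 ± 0.48 (SE, limma adjusted p = 0.00251).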

How the data were processed

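Biotin-labelled cRNA from 10 pools was hybridised to Affymetrix arrays, per the labels' protocols. The authors deposited log2 values, and the submitters' processing notes name RMA without a version. RMA brings arrays to 1 distribution, which hides shifts shared by all genes. Sorted values agreed within 0.00186 between arrays, and no 2 arrays shared over 0.243% identical values. The genome build behind the probe sets is not given in the sources used here. Of 25428 probe sets 24705 had 1 gene symbol, 0 several and 723 none, and each ID is a gene's Entrez ID, so transcript forms are not separated. For 1 gene with 2 or more probe sets the brighter was kept.

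CDAA and Std (5 arrays each) were compared with limma (version 3.58.1, R 4.3.3; lmFit, eBayes), with p-values adjusted over 24704 genes. Alternatives were other normalizations, filters, variance models, covariates, a replicate block and arrays left out. In simulated data with 200 of 24704 genes changed, this recovered 13% of changes of 0.5 and 82.5% of changes of 1. The members and the 19 lists (8 pathway, 11 marker; 10 of 199 entries without a named probe set here) were chosen with earlier results of these data known. By rule the text names the members, Nrp1, Nrp2, Mcam and Vegfd, up to 3 called genes per pathway list with the largest change, and the 3 genes closest to each member. Other genes were named after their values were seen. Differences from marker means were added after seeing the data. Promoter sequences are RefSeq's. The array number limits the precision.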

Additional observations from a re-analysis of the deposited data

Results flagged for a closer look

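In 234 groups of 5 arrays (named genes, list means, differences from marker means, pair differences) the farthest array was compared with the rest by Dixon's value of 0.71, the gap as a share of the range. It was passed in 14 groups, where chance alone, at 1 group in 20, gives about 11.7. Among the named genes it was passed in 8 of 150 groups, against 7.5.

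Std 3 held 5 of those 8: Pgf at 2.43 against 2.83 to 2.94, Ccbe1 at 4.47 against 5.30 to 5.61, Slc2a1 at 7.63 against 6.29 to 6.66, Ldhb at 8.12 against 8.37 to 8.45, and Hoxd3os1 at 3.09 against 3.91 to 4.22. Hoxd3os1 and Ldhb were named because they varied like Pgf and like Vegfb over these same arrays, so they do not count as separate findings. Std 3 also had the highest Std means of neutrophil markers, 8.55 against 3.60 to 3.86, and of recruited macrophage markers, 5.78 against 4.95 to 5.07. A part of these cells was not tested. Less the pan-endothelial mean, Pgf was at -8.96 in Std 3 against -8.63 to -8.57, and less the LSEC mean at -9.57 against -9.15 to -9.05.

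Nrp2 was at 10.47 in Std 4 against 10.25 to 10.30 in the other Std arrays. Klf2 was at 8.66 in CDAA 5 against 9.03 to 9.08 in the other CDAA arrays, and Furin at 8.65 in CDAA 3 against 8.44 to 8.49. The platelet marker mean was 4.03 in CDAA 5 against 4.26 to 4.32. Vegfc less the pan-endothelial mean was at -4.12 in CDAA 1 against -3.86 to -3.77.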

How the results depend on the processing

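The 7 VEGF genes were refitted under 21 other settings. The 5 calls kept their direction and their side of the threshold in 20 of them, all but the pan-endothelial covariate, with which limma passed 0 of the 7 (0 risen, 0 fallen) and 4 at an unadjusted p under 0.05. The share of all genes at that unadjusted level with this covariate was not computed. Over all genes that covariate left 398 changed (270 risen, 128 fallen), against 4106 (1851 and 2255), and 3 of the pathway genes (3 risen, 0 fallen), against 43 (16 and 27). Without CDAA 1 and CDAA 3, 2612 genes changed, of which 1307 fell, and 36 pathway genes. Leaving out each array in turn gave 2956 to 4572 genes, 5 of the 7 members each time, 35 to 46 pathway genes, and 6 to 7 of 9 unequal pairs.

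Signs reversed, in each case without passing in the reversed fit, for Vegfc (0.47 with the pan-endothelial covariate and 0.12 without CDAA 1 and CDAA 3), Pgf (leaving out single arrays gave -0.027 to 0.105, the lowest without Std 3), Mtch1 (-0.010 without CDAA 2 and -0.033 without CDAA 4) and Hoxd3os1 (-0.087 to 0.233 over single arrays, negative without CDAA 5 or Std 3). With the pan-endothelial covariate they reversed for Angpt2 (0.071), Erg (0.094), Sox17 (0.042), Nos3 (0.228), Osgin1 (-0.079), Togaram1 (0.15) and Mtmr12 (0.084). The cause was not tested. With the replicate number as a block, 0 of 9 unequal pairs passed, adjusted or not, since exchanges within numbers allow no p below 0.0625, while 5 of the 7 members and 4178 genes passed. The block ended the calls of Pxn and Rcan1. Deviations of arrays with the same number correlated at 0.016 to 0.249, over 0.1 for 3 of 5 numbers, and 6 of 10 arrays correlated best with their own number. Since not every number was over 0.1, the numbers were not taken as pairs. Changes near 0.5 were often missed in simulated data, and signals under the array median of 3.88, such as Pgf and Vegfd, may not exceed background.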

Other observations

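Markers of the remaining blood cells did not pass the test in any list. Of 8 neutrophil genes, 7 lymphocyte genes and 5 platelet genes, 0 passed an adjusted p of 0.05 by limma, and 0, 0 and 1 an unadjusted p of that size. Their means were 4.66 to 5.53, 4.60 to 5.02 and 4.03 to 4.32 in CDAA, and 3.60 to 8.55, 4.53 to 4.95 and 4.23 to 4.66 in Std. The upper end for neutrophil markers in Std came from Std 3 alone. In the other Std arrays that mean was 3.60 to 3.86, below every CDAA array. The lack of calls among neutrophil genes thus does not show equal levels in the 2 diets.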
